A study of Homo sapiens with 18 samples.

Results

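The BCL2 family decides whether the outer membrane of the mitochondrion stays intact when a cell is under stress. The 10 members described here were chosen by gene name. They are the pro-survival genes BCL2, BCL2L1 (BCL-XL) and MCL1, the pro-death effectors BAX and BAK1, and the BH3-only genes BAD, BID, BIK, BBC3 (PUMA) and BCL2L11 (BIM). They are 10 of the 23500 entries of the RNA-seq table, and all 10 were found there by their RefSeq identifiers. Pro-survival proteins hold BAX and BAK in check, and BH3-only proteins relieve that restraint or activate the effectors directly. Once active, BAX and BAK form pores that release cytochrome c, which starts the caspase cascade. BCL2 is a long-known estrogen-responsive gene of ER+ breast cancer, and its protein is a routine marker of the luminal type.

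The cells were ZR751 (ZR75-1), an established breast cancer line that expresses the estrogen receptor. In ZR751shMLL3 a stable lentiviral hairpin targets MLL3, and in ZR751shLucif a control hairpin targets luciferase. MLL3, whose current symbol is KMT2C, is a methyltransferase that places monomethylation on lysine 4 of histone H3 (H3K4me1), a mark found at enhancers. Both lines were sorted for GFP, grown in the same serum-containing medium and harvested at steady state at an early passage. RNA-seq, H3K4me1 ChIP-seq and ERα ChIP-seq each gave 2 libraries per cell line. Each arm is therefore 1 transduced derivative of 1 cell line with 1 hairpin, and the replicates of the ChIPs came from a single experimental repetition, so that p-values measure the spread between these libraries only. The comparison asks whether RNA of the pro-survival or the pro-death genes, and the H3K4me1 and ERα peaks around them, differed between the cell lines. Peaks were counted within the gene and 100 kb on each side of it.

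The hairpin against MLL3 contains the sequence below, given 5′ to 3′ because it defines the knockdown.
MLL3 target: CGCACCTTATAGTAAACAGTT
Its 21 bases matched the KMT2C gene at 1 place, chr7:151841880-151841900 on the minus strand of GRCh37 (the coordinates of hg19), in coding sequence. KMT2C was listed at 2.34 and 6.77 FPKM (fragments counted per transcript, scaled to its length and to the mapped total of the library) in the ZR751shLucif libraries and at 1.07 and 2.69 FPKM in the ZR751shMLL3 libraries. The lower control library lay below the higher knockdown library, so the cell lines overlapped. The log2 fold change of KMT2C, ZR751shMLL3 over ZR751shLucif, was -1.02 with a standard error of 0.54, and limma gave an adjusted p of 0.629. ESR1, which encodes ERα, had 11.2 and 14.2 FPKM in ZR751shLucif and 12.1 and 10.8 FPKM in ZR751shMLL3, with a log2 fold change of -0.14, a standard error of 0.28 and a limma adjusted p of 0.875.

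Of the ERα peaks listed in introns of BCL2, 2 are shown by the 300 bases at their centre, from the plus strand of GRCh37, because they are the places where the ERα results below differ between libraries. Capitals mark the closest match to the estrogen response element GGTCANNNTGACC on either strand, which keeps an arm in both windows.
BCL2 intron site, best of the BCL2 window in both ZR751shLucif libraries (chr18:60908614-60908913): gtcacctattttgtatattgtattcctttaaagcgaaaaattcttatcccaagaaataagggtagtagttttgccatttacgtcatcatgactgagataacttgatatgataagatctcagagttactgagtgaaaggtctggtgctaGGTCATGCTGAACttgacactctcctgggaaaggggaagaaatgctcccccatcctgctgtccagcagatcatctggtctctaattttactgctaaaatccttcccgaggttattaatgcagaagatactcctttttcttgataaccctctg
BCL2 intron site, best of ZR751shMLL3 replicate 1 (chr18:60893064-60893363): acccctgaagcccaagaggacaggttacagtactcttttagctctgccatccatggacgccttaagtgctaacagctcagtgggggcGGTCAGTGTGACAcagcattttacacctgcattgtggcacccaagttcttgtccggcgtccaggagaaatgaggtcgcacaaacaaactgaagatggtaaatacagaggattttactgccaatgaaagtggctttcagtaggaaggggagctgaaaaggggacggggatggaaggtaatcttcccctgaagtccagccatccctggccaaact
The first window holds GGTCATGCTGAAC at chr18:60908762-60908774, which matches 9 of the 10 stated bases of the element and differs by C12A, counted from 1 at the 5′ end of the element with the consensus base first. The second holds GGTCAGTGTGACA at chr18:60893151-60893163, also with 9 of 10 bases, and differs by C13A. Among reproducible ERα peaks, 18.9% of the ZR751shLucif windows and 23.3% of the ZR751shMLL3 windows of this length held a match of at least 9 bases, against 1.02% to 2.01% of the 50000 top-ranked peaks of single libraries. A match is a description of the letters in the window and not a measured binding site.

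The RNA libraries correlated with one another at 0.900 to 0.969 across genes, and ZR751shLucif replicate 1 stood apart, at 0.900 to 0.907 with each of the others. All 9 luminal markers were above 1 FPKM in every library, with summed levels of 6451 to 13837 FPKM. Summed levels of the other cell types' markers were 1.77 to 3.90 FPKM for basal epithelium (1 of 4 genes above 1 FPKM in all libraries), 13.2 to 18.1 FPKM for fibroblasts (1 of 6), 10.4 to 16.3 FPKM for leukocytes (1 of 5) and 0.141 to 0.282 FPKM for endothelium (0 of 3). No defining marker was listed at 0 in all 4 libraries. In bulk RNA, fewer cells of a type and less RNA per cell cannot be told apart.

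Of the 11134 genes with a mean log2(FPKM + 0.5) above 1, limma called 1 gene, which was lower in ZR751shMLL3. This is 0.00898% of the genes in either direction, with 0% higher. All 10 members passed the filter, and 0 of them were called. At an unadjusted p under 0.05, limma also counted 0 of the 10 members, against 7.98% of all genes (3.67% higher and 4.31% lower). That count depended on the setting. With every library kept, limma counted 2 with median centring (1088 of 11134 genes) and 2 with quantile normalization (1153 of 11134). Without the filter it counted 1 (1861 of 18215). The count is not given for fits that left 1 library in a cell line, and it was not the same in all of them. The median log2 fold change of the members was 0.22, beside -0.10 over all genes tested, with 8 members above 0 and 2 below. Fold changes are on the log2(FPKM + 0.5) scale, which understates the change of low genes. Both ZR751shMLL3 libraries lay above both ZR751shLucif libraries for 3 members (MCL1, BAK1 and BAD), where 17.6% of all genes did. They lay below both for 1 member (BIK), where 25.3% of all genes did.

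None of the 3 pro-survival genes passed the test. MCL1, a short-lived protein on which many breast cancer cells depend, had the highest RNA of the 10 genes. Its level was 93.8 and 102 FPKM in ZR751shLucif and 113 and 106 FPKM in ZR751shMLL3. The libraries did not overlap, but the gap between the cell lines was small, with a log2 fold change of 0.16, a standard error of 0.26 and a limma adjusted p of 0.846. The 95% interval of that fold change ran from -0.48 to 0.79. The entry for MCL1 also carries the accession of a non-coding RNA, ADAMTSL4-AS1, so that a part of its FPKM may belong to another transcript.

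BCL2L1, which encodes BCL-XL and, from a shorter splice form, the pro-death BCL-XS, had 78.2 and 45.5 FPKM in ZR751shLucif and 68.9 and 81.1 FPKM in ZR751shMLL3. The FPKM is 1 value per gene and does not separate the splice forms. The control libraries bracketed 1 of the ZR751shMLL3 libraries, and the log2 fold change was 0.32 with a standard error of 0.34 (limma adjusted p = 0.764). BCL2, the founding member of the family, had 7.56 and 12.4 FPKM in ZR751shLucif and 10.3 and 10.0 FPKM in ZR751shMLL3. Both ZR751shMLL3 libraries sat between the control libraries. Its log2 fold change was 0.06 with a standard error of 0.32 and a 95% interval from -0.72 to 0.84 (limma adjusted p = 0.959). Of all genes tested, 88.9% had a larger absolute change than BCL2. Without ZR751shLucif replicate 1, the library that stood apart, its log2 fold change was -0.28.

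Neither effector passed the test, though BAK1 had the largest log2 fold change of the 10 genes. BAK1, which sits in the mitochondrial membrane of healthy cells, had 16.4 and 12.6 FPKM in ZR751shLucif and 20.6 and 24.6 FPKM in ZR751shMLL3. All ZR751shMLL3 values were above all control values. The log2 fold change of 0.63 had a standard error of 0.29 and a 95% interval from -0.06 to 1.32, and limma gave an adjusted p of 0.620. BAX, which moves to the mitochondrion from the cytosol on activation, had 66.2 and 40.5 FPKM in ZR751shLucif and 63.7 and 62.5 FPKM in ZR751shMLL3. The ZR751shMLL3 libraries were near the upper control library, and its log2 fold change was 0.28 with a standard error of 0.33 (limma adjusted p = 0.782). Without ZR751shLucif replicate 2 the BAX value was -0.07.

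Of the 5 BH3-only genes 0 passed the test. BAD, which binds BCL2 and BCL-XL when survival signalling does not keep it phosphorylated, had 37.2 and 25.7 FPKM in ZR751shLucif and 44.5 and 51.9 FPKM in ZR751shMLL3. The ranges did not overlap, and the log2 fold change was 0.63 with a standard error of 0.30 and a 95% interval from -0.11 to 1.36 (limma adjusted p = 0.629). BBC3, which encodes the p53-induced protein PUMA, had 5.93 and 9.79 FPKM in ZR751shLucif and 14.6 and 9.34 FPKM in ZR751shMLL3. A single library, ZR751shMLL3 replicate 1, was above the other 3. Its log2 fold change of 0.58 had a standard error of 0.37 (limma adjusted p = 0.653), and was 0.27 without that library.

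BCL2L11, which encodes BIM, had 6.84 and 12.6 FPKM in ZR751shLucif and 11.1 and 9.79 FPKM in ZR751shMLL3. As with BCL2, the ZR751shMLL3 libraries fell between the controls, and the log2 fold change was 0.16 with a standard error of 0.35 (limma adjusted p = 0.888). BID, which caspase-8 cleaves to link death receptors to the mitochondrion, had 29.2 and 14.8 FPKM in ZR751shLucif and 15.8 and 23.7 FPKM in ZR751shMLL3. The lowest and the highest value were both control libraries, and the log2 fold change was -0.10 with a standard error of 0.41 (limma adjusted p = 0.943). BIK, a BH3-only protein of the endoplasmic reticulum, had 3.56 and 3.96 FPKM in ZR751shLucif and 2.41 and 3.53 FPKM in ZR751shMLL3. Its upper ZR751shMLL3 library nearly touched the controls. The log2 fold change was -0.31 with a standard error of 0.29 (limma adjusted p = 0.733), and was -0.079 without ZR751shMLL3 replicate 1.

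**Figure D1:**
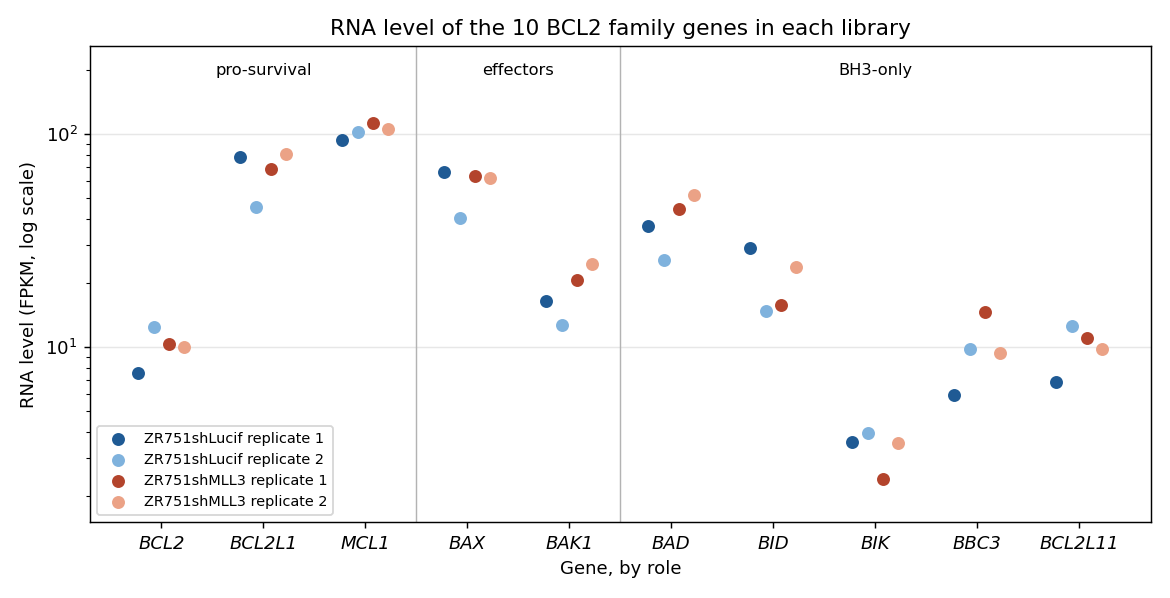
RNA level of the 10 genes, grouped by role, with 1 point per library on a log axis of FPKM. MCL1 is at the top in every library (93.8 to 113 FPKM) and BIK at the bottom (2.41 to 3.96 FPKM); the points of both cell lines overlap for 6 of the genes, and BAK1 and BAD have both ZR751shMLL3 points above both control points.

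The order of the levels ran from MCL1, with a mean of 104 FPKM over the 4 libraries, through BCL2L1 at 68.4, BAX at 58.2, BAD at 39.8, BID at 20.9, BAK1 at 18.5, BCL2 at 10.1, BCL2L11 at 10.1 and BBC3 at 9.92 to BIK at 3.36. FPKM is scaled to transcript length but not to GC content, so the order of these means is a description only. Among neighbours in that order, the ranges over the 4 libraries were separate for MCL1 against BCL2L1, BAK1 against BCL2, and BBC3 against BIK, and overlapped for the other 6 pairs. MCL1 was above 92.6% of the genes tested and BIK above 13.7%. The pro-survival gene with the least RNA was BCL2, which is also the one with a reproducible ERα peak, described below.

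As a description of the balance between the roles, the mean log2(FPKM + 0.5) of the 3 pro-survival genes minus that of the 7 pro-death genes was 1.31 and 1.45 in ZR751shLucif and 1.33 and 1.26 in ZR751shMLL3. The ZR751shMLL3 values lay within or just below the control pair. The means were 1.38 ± 0.099 and 1.30 ± 0.045 (SD, n = 2), a difference of -0.085. The mean over the effectors went from 4.80 to 5.26 on the log2 scale, that over the BH3-only genes from 3.56 to 3.75, and that over the pro-survival genes from 5.29 to 5.48.

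GC content moved with the difference between the cell lines across genes. Over all genes tested, the Spearman correlation of the log2 fold change with transcript GC content was 0.52 across genes, which are not independent replicates and share the same 4 libraries. With the genes split into 4 equal groups by GC content, the median log2 fold change went from -0.35 in the lowest group to 0.23 in the highest. The members with the largest positive values, BAD, BBC3 and BAK1, have a GC content of 66.3%, 69.7% and 58.8%. BAX and BCL2L1, at 58.9% and 58.2%, have as much as BAK1 with smaller values, and BCL2, MCL1 and BCL2L11 have 45.6%, 44.7% and 46.6%. After the trend on GC content was removed from each library, the log2 fold changes were 0.31 for BAD, 0.23 for BBC3, 0.46 for BAK1, 0.11 for BAX and 0.17 for BCL2L1. The values of BCL2, MCL1 and BCL2L11 were then 0.26, 0.38 and 0.33. Those of BID and BIK, with a GC content of 49.7% and 55.9%, went from -0.10 to -0.016 and from -0.31 to -0.41. The difference in balance between the cell lines was 0.13 after this step, of the opposite sign to the value above.

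**Figure D2:**
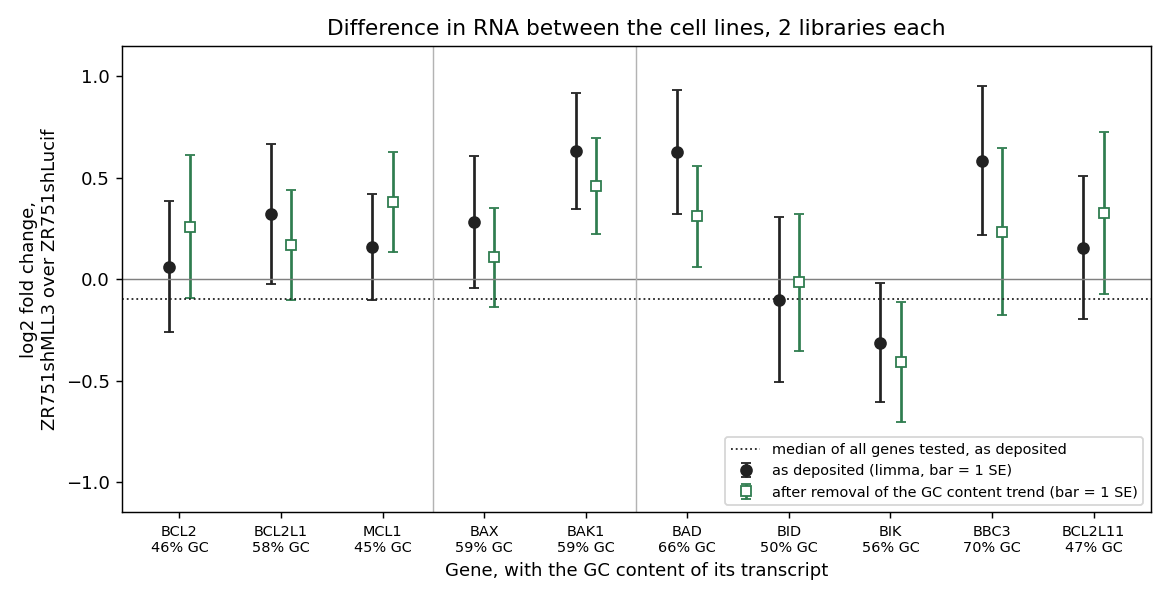
Log2 fold change of each gene, ZR751shMLL3 over ZR751shLucif, with bars of 1 standard error from limma, as deposited (filled circles) and after removal of the trend on GC content (open squares). The dotted line marks the median of all genes tested, as deposited. BAD falls from 0.63 to 0.31 and BBC3 from 0.58 to 0.23, and MCL1 goes from 0.16 to 0.38.

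Other genes of the mitochondrial pathway were read from fixed lists of its components. Their values are as deposited, without removal of the GC content trend. The median GC content of the genes that passed ran from 41.0% (inhibitor of apoptosis genes) to 51.9% (other BCL2 family genes), beside 48.4% over all genes tested. It was 42.8% for the apoptosome and caspase list. Whether the list medians follow GC content was not tested. Of the 13 other BCL2 family genes, 8 passed the filter and limma called 0, with 2 at an unadjusted p under 0.05 and a median log2 fold change of 0.27. PMAIP1, which encodes the MCL1-binding BH3-only protein NOXA, had 13.8 and 12.7 FPKM in ZR751shLucif and 7.75 and 6.19 FPKM in ZR751shMLL3. Its control libraries were both above its ZR751shMLL3 libraries, and its log2 fold change of -0.89 had a limma adjusted p of 0.557. BOK, a BAX-like effector, had 18.0 and 16.6 against 27.7 and 30.2 FPKM, and its log2 fold change was 0.73 (limma adjusted p = 0.604). BCL2L12 had a value of 0.45 (limma adjusted p = 0.654).

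Downstream of the membrane, 11 of 12 genes of the apoptosome, the caspases and the released mitochondrial proteins passed the filter, 0 were called and 0 were at an unadjusted p under 0.05, and the median log2 fold change was -0.14. The largest values were those of APAF1, the scaffold of the apoptosome, at -0.46 (limma adjusted p = 0.674) and the mitochondrial nuclease gene ENDOG at 0.46 (limma adjusted p = 0.640). Of 6 inhibitor of apoptosis genes 4 passed, 0 were called by limma with 0 at an unadjusted p under 0.05, and the median was -0.03. The log2 fold changes of BIRC2, XIAP and BIRC5 were -0.12, -0.09 and 0.06, each smaller in size than its standard error, and were 0.12, -0.28 and -0.28 without ZR751shLucif replicate 1.

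All 8 genes for mitochondrial membrane partners and chaperones of the family passed, 0 were called by limma and 2 were at an unadjusted p under 0.05, with a median of 0.17. BAG3, a co-chaperone of HSP70 that stabilises pro-survival BCL2 proteins, had 53.3 and 29.3 FPKM in ZR751shLucif and 113 and 83.1 FPKM in ZR751shMLL3. These libraries did not overlap, and the log2 fold change of 1.28 had a limma adjusted p of 0.518. HSPA9, the mitochondrial HSP70, had 222 and 180 FPKM in ZR751shLucif, above 114 and 113 FPKM in ZR751shMLL3, and its log2 fold change was -0.82 (limma adjusted p = 0.595). VDAC2, a channel that recruits BAK to the membrane, had 382 and 155 FPKM in ZR751shLucif and 168 and 146 FPKM in ZR751shMLL3. These overlapped, and its log2 fold change of -0.64 (limma adjusted p = 0.675) was 0.01 without ZR751shLucif replicate 1. Of 8 upstream regulators of the BH3-only genes 7 passed, limma called 0 with 0 at an unadjusted p under 0.05, and the median was 0.20. MAPK8, the stress kinase JNK1, had 9.16 and 6.78 FPKM in ZR751shLucif and 3.87 and 5.36 FPKM in ZR751shMLL3, and its log2 fold change was -0.73 (limma adjusted p = 0.614), and that of TP73 was 0.54 (limma adjusted p = 0.629). DDIT3 had 26.4 and 81.8 FPKM in ZR751shLucif and 64.3 and 62.2 FPKM in ZR751shMLL3, and its log2 fold change of 0.44 (limma adjusted p = 0.787) was -0.37 without ZR751shLucif replicate 1.

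Most H3K4me1 peaks around these genes lay around the pro-survival members, in both cell lines. Reproducible peaks, those with an irreproducible discovery rate (IDR) of at most 0.1 between the replicate lists, numbered 74 around the 10 genes in ZR751shLucif, of which 68 were around the 3 pro-survival genes and 6 around the 7 pro-death genes. Per 100 kb of window that is 7.77 peaks around the pro-survival genes and 0.387 around the pro-death genes, beside 1.02 over the whole genome. In ZR751shMLL3 there were 19 peaks, 16 and 3, at 1.83 and 0.194 per 100 kb, beside 0.278 over the genome. A count by cell line has 1 value per line and no replicate. Among the 50000 top-ranked peaks of each library, the pro-survival genes had 69 and 92 in ZR751shLucif and 60 and 70 in ZR751shMLL3, and the pro-death genes had 11 and 12 and then 14 and 12. The genes were not matched for length or neighbours, so the difference between the roles is a description of these 10 windows.

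BCL2 had 38 reproducible H3K4me1 peaks in ZR751shLucif and 7 in ZR751shMLL3, more than 99.6% and 97.2% of the 20136 protein-coding genes had in windows set the same way. The window follows the length of the gene, and that of BCL2 spans 396783 bp, the longest of the 10. Per 100 kb it held 9.58 and 1.76 peaks. MCL1 had 20 and 6 peaks, or 9.14 and 2.74 per 100 kb, and BCL2L1 had 10 and 3, or 3.85 and 1.16 per 100 kb. Among the pro-death genes, BID had 5 and 3 peaks, at 2.08 and 1.25 per 100 kb, and BCL2L11 had 1 and 0. BAX, BAK1, BAD, BIK and BBC3 had 0 in both cell lines. At least 1 peak was found at 5 members in ZR751shLucif, beside 57.2% of protein-coding genes, and at 4 members in ZR751shMLL3, beside 29.9%.

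The number of peaks was lower in ZR751shMLL3 at 5 members, where it was lower at 52.6% of protein-coding genes, and higher at 0, where it was higher at 3.59%. The ratio of ZR751shMLL3 to ZR751shLucif was 0.257 around the members and 0.272 over the whole genome. Both ratios depend on the list: among peaks in the 50000 top-ranked of both replicates they were 0.651 (43 against 28 peaks) and 0.674. Some listed peaks overlap one another, and after overlapping peaks were merged, a step chosen after seeing the data, there were 52 and 17 sites.

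Counts in single libraries gave the spread between replicates. Peaks at a false discovery rate (FDR) of at most 0.01 around the 10 genes numbered 191 and 259 in ZR751shLucif and 48 and 150 in ZR751shMLL3. The means were 225 ± 48.1 and 99 ± 72.1 (SD, n = 2), and the difference was -126 (two-sided exact permutation p = 0.333, which 2 against 2 libraries cannot go below). The ratio of the means was 0.44, and that of the whole genome in the same libraries was 0.415. BCL2 had 81 and 101 peaks in ZR751shLucif and 22 and 63 in ZR751shMLL3. MCL1 had 38 and 56 against 8 and 28, and BCL2L1 had 38 and 57 against 11 and 26. BID had 14 and 14 against 3 and 9, and BCL2L11 had 12 and 13 against 3 and 9. The other 5 genes had at most 7 peaks in any library. Both ZR751shMLL3 libraries were below both control libraries at 6 of the 10 members, as they were at 62% of protein-coding genes, and above them at 0, beside 0.293%.

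When each library was instead given the same number of peaks, the 50000 with the highest signal, the members had 80 and 104 peaks in ZR751shLucif and 74 and 82 in ZR751shMLL3 (two-sided p = 0.667, exact permutation test). BCL2 remained lower, with 40 and 52 peaks against 28 and 38. MCL1 had 19 and 24 against 16 and 19, BCL2L1 had 10 and 16 against 16 and 13, and BID had 6 and 7 against 6 and 5. BAX, with 0 and 0 against 1 and 1, was the only member with both ZR751shMLL3 libraries above. With equal numbers of peaks, both ZR751shMLL3 libraries were thus below both controls at 1 member, beside 12.5% of protein-coding genes, and above at 1, beside 13.3%.

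**Figure D3:**
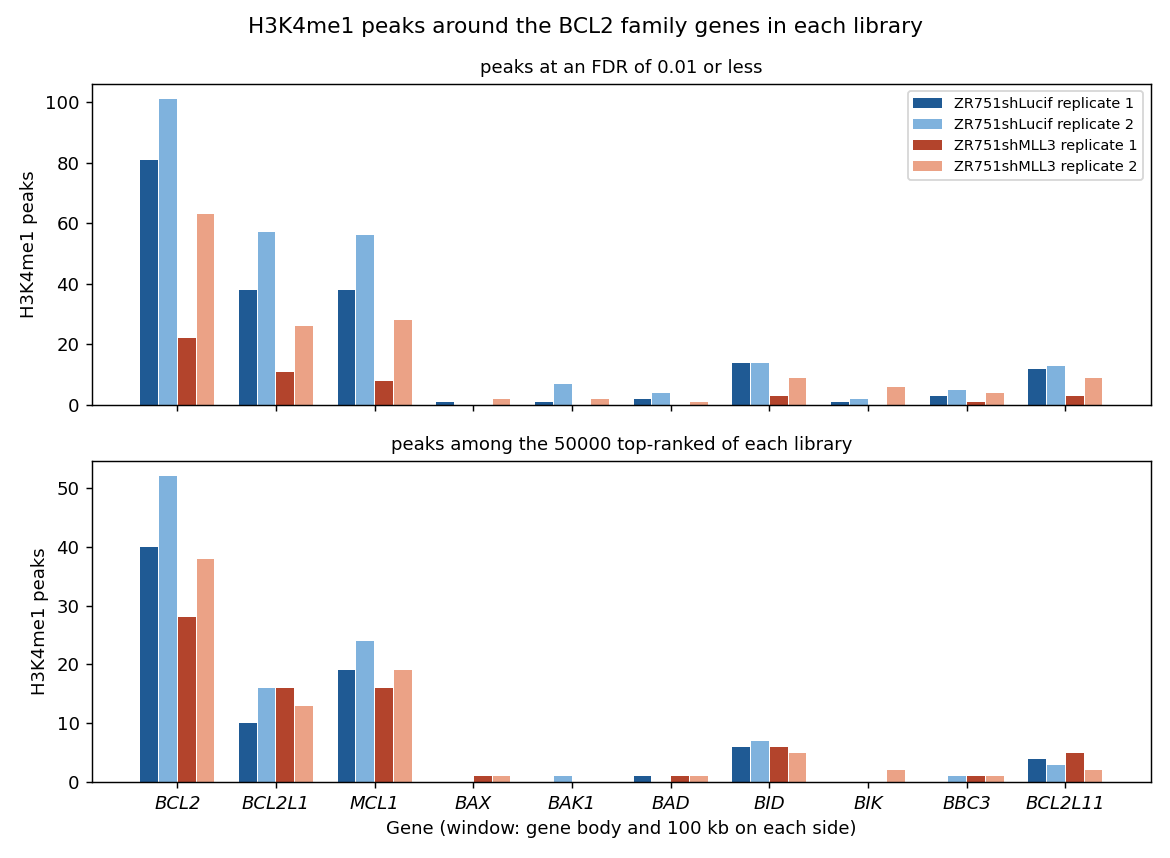
H3K4me1 peaks in the window of each gene (the gene and 100 kb on each side), with 1 bar per library, at an FDR of at most 0.01 (upper panel) and among the 50000 top-ranked peaks of each library (lower panel). BCL2, MCL1 and BCL2L1 hold most of the peaks in every library, and the gap between the cell lines at BCL2, from 81 and 101 to 22 and 63 in the upper panel, narrows to 40 and 52 against 28 and 38 in the lower.

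The H3K4me1 peaks were also described by their position at the member. Of the 74 reproducible peaks in ZR751shLucif, 43 were in introns of the member, 8 in exons and 23 outside the gene. The centres of 0 peaks were within 1000 bp of the member's start site. No share over all genes was taken beside that count, so it is a description only. For 54 of the 74 peaks the member was the gene with the nearest start. At BCL2, 30 of 38 were in introns. Of the 74 peaks, 20 (27%) were also reproducible in ZR751shMLL3, beside 21.8% of all reproducible ZR751shLucif peaks, and 66 were listed at some rank in both ZR751shMLL3 libraries, as were 78.2% of all. Of the 19 peaks in ZR751shMLL3, 14 (73.7%) were also reproducible in ZR751shLucif, beside 58.5% of all.

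The H3K4me1 peak at BCL2 with the best rank in both ZR751shLucif libraries was also reproducible in ZR751shMLL3. It lay in an intron at chr18:60897281-60898361, 89540 bp from the start site, with ranks of 248 and 523 in ZR751shLucif and of 817 and 6627 in ZR751shMLL3. In ZR751shMLL3 replicate 2 another peak in the BCL2 gene, chr18:60928089-60928928, ranked higher, at 336. A peak 2138 bp upstream of the BCL2 start, at chr18:60988570-60990428, was also reproducible in both, with ranks of 3946 and 47762 in ZR751shLucif and 2165 and 3473 in ZR751shMLL3. At MCL1, a peak over an exon near the 3′ end of the annotated gene, chr1:150535201-150536286, ranked 6035 and 1147 in ZR751shLucif, and in ZR751shMLL3 it ranked 91605 in one library and 48 in the other. Such a gap between replicates keeps a peak out of the reproducible set even where 1 library lists it near the top.

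A few H3K4me1 peaks were reproducible in ZR751shMLL3 and not in ZR751shLucif. They were 2 at BCL2, at chr18:60703496-60704365 and chr18:60922205-60923197, 2 in introns of BCL2L1, at chr20:30287339-30288178 and chr20:30294436-30295593, and 1 at MCL1, at chr1:150641301-150642140. The last ranked 488 and 3172 in ZR751shMLL3 and 64961 and 54467 in ZR751shLucif. It lay at -89507 bp from the MCL1 start, that is upstream, and the nearest start was that of GOLPH3L. The BCL2 peak at chr18:60703496-60704365 ended just short of a peak reproducible in ZR751shLucif, chr18:60704370-60705396. It is listed here only because the 2 peaks did not overlap, and need not be a separate location.

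The reproducible ERα peaks around the members were all at BCL2. At an IDR of at most 0.7, BCL2 had 2 reproducible ERα peaks in ZR751shLucif and 0 in ZR751shMLL3, and the other 9 members had 0 in both. At least 1 such peak was found at 1 member in ZR751shLucif, beside 8.8% of protein-coding genes, and at 0 members in ZR751shMLL3, beside 8.25%. The number was lower in ZR751shMLL3 at 1 member, beside 6.51%, and higher at 0, beside 5.87%. Over the genome the reproducible peaks numbered 1223 and 1216. The threshold of 0.7 is loose, and the peaks it passes can include many irreproducible pairs. The fit took a share of 0.0282 of the 16187 ERα pairs of ZR751shLucif as reproducible, and 0.0106 of 37620 pairs of ZR751shMLL3. At the alternative IDR of 0.2, peaks over the genome numbered 342 and 386, and the members had 1 and 0. All percentages of reproducible ERα peaks given here carry this limit.

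The stronger of the BCL2 peaks is the first window printed above. It spanned chr18:60908526-60909001, in an intron 78597 bp from the start site, with no other gene's start nearer. It ranked 132 and 314 in the ZR751shLucif libraries, with an IDR of 0.00152 and FDR of 0.00235 and 0.000634. In ZR751shMLL3 the same place was listed at ranks of 48551 and 210487, with FDR of 0.233 and 0.0627, and it was not reproducible. Of the 124 ZR751shLucif ERα peaks with an IDR no higher than that of this site, 106 (85.5%) were also reproducible in ZR751shMLL3, and over all 1223 peaks 192 (15.7%) were. The BCL2 intron site was not among the 106. It was picked out here after its values were seen, and with 2 libraries per line its change of rank has no test.

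The same site lay in H3K4me1-marked chromatin. It overlapped 3 reproducible H3K4me1 peaks in ZR751shLucif, which also overlapped one another, with best ranks of 8153 and 2805 in the replicates. Of all 1223 reproducible ERα peaks of that line, 200 (16.4%) overlapped at least 1. That share was not taken over only the peaks with an IDR as low as that of this site. In ZR751shMLL3 the site overlapped 0 reproducible H3K4me1 peaks. The single libraries of that line differed, with a best rank of 68900 and an FDR of 0.0400 in replicate 1 and a best rank of 1925 and an FDR of 0.000146 in replicate 2.

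The weaker reproducible ERα peak at BCL2, chr18:60982987-60983462, lay in a non-coding exon 4136 bp from the start site. It ranked 6284 and 52506 in ZR751shLucif with an IDR of 0.612, near the threshold of 0.7, and was not listed in either ZR751shMLL3 library. The second window printed above came from another BCL2 intron peak, chr18:60892904-60893523, 94147 bp from the start. It was the best-ranked BCL2 peak of ZR751shMLL3 replicate 1, at 1446, and was not listed in replicate 2, and it ranked 94415 and 426 in ZR751shLucif. A single replicate of each line thus listed it near the top, and it was reproducible in neither. Both intron peaks printed above hold a 9 of 10 match to the element, though 1 was reproducible and the other was not. The weaker reproducible peak matched the element at no more than 6 of 10 bases, as did the best-ranked BCL2 intron peak of ZR751shMLL3 replicate 2, chr18:60894443-60894752, at rank 2421.

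**Figure D4:**
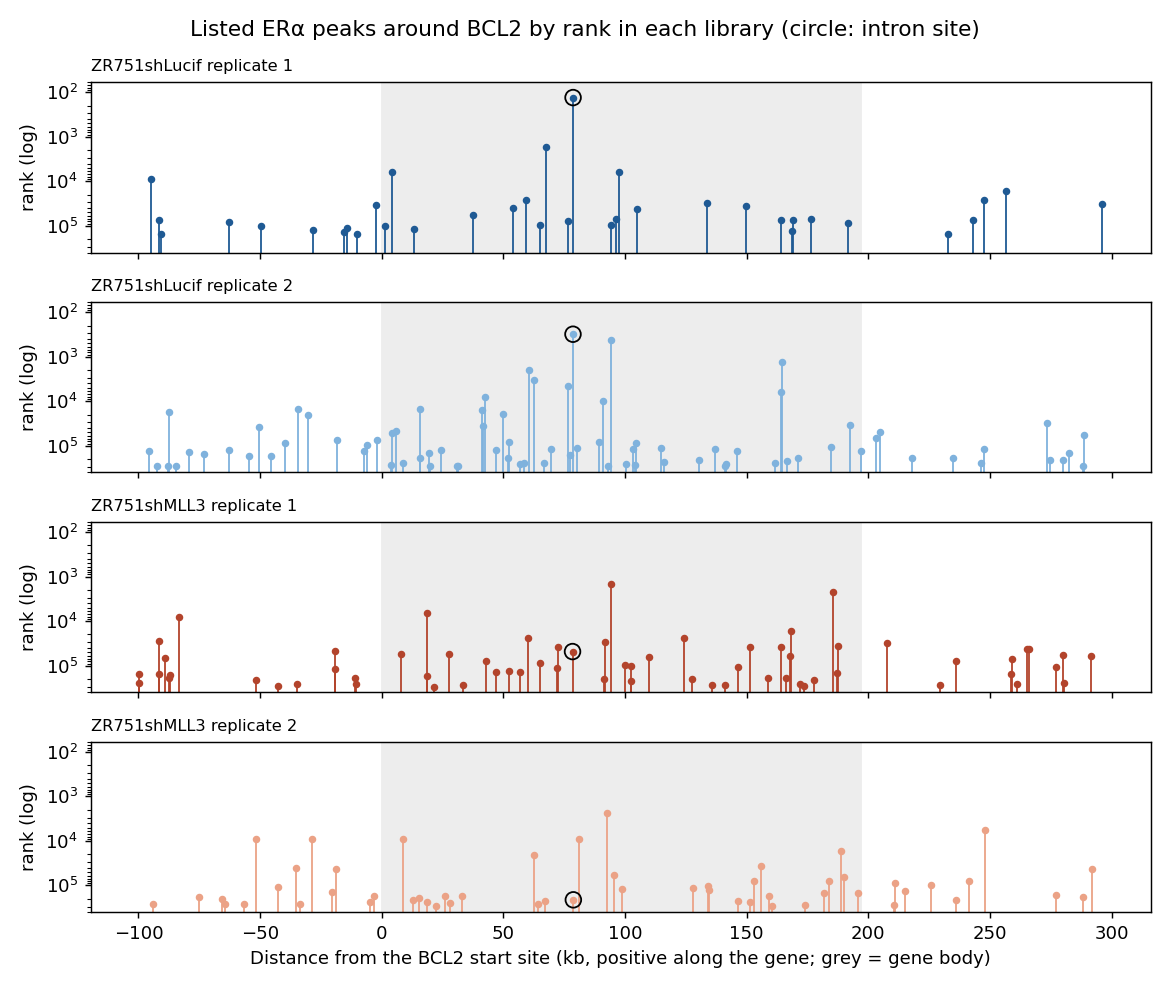
Listed ERα peaks around BCL2 in each library, by distance from the start site in kb (x axis, positive along the gene, gene body in grey) and by rank in that library's list (y axis, log scale, best at the top). The circled intron site is at the top in both ZR751shLucif libraries, at ranks of 132 and 314, and far down in both ZR751shMLL3 libraries, at 48551 and 210487.

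At other members, single libraries listed ERα peaks near the top that their replicates did not. The best rank at BBC3 was 626, in an intron of SAE1 in ZR751shLucif replicate 1, and that at BAX was 1451, in a coding exon of FTL in ZR751shLucif replicate 2. The best ranks at BID, MCL1 and BCL2L11 were 3444, 4281 and 6105, and those at BIK, BAD and BAK1 were 16625, 26007 and 73952, so that best ranks are given here for 8 of the members.

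Counts of ERα peaks per library differed more between replicates than between cell lines. At an FDR of at most 0.01 the 10 genes had 56 and 6 peaks in ZR751shLucif and 0 and 21 in ZR751shMLL3. The means were 31 ± 35.4 and 10.5 ± 14.8 (SD, n = 2), and the difference was -20.5 (two-sided exact permutation p = 0.667). It was 4.5, of the other sign, without ZR751shLucif replicate 1. That library listed 98579 such peaks over the genome, where the other 3 libraries listed 3797, 764 and 31912. BCL2 had 26 and 5 peaks in ZR751shLucif and 0 and 8 in ZR751shMLL3, the most of any member in every library but ZR751shMLL3 replicate 1, where all 10 members had 0. The cell lines did not separate at any member, with 0 lower beside 4% of protein-coding genes and 0 higher beside 0%. Among the 50000 top-ranked peaks of each library, the members had 28 and 45 in ZR751shLucif and 29 and 31 in ZR751shMLL3 (two-sided p = 1, exact permutation test). In that count BID was the only member where both ZR751shMLL3 libraries, with 1 and 1, were below both controls, with 3 and 3, beside 10.2% of protein-coding genes, and 0 members were the other way, beside 7.92%.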

How the data were processed

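RNA-seq, H3K4me1 ChIP-seq and ERα ChIP-seq were measured in 2 libraries per cell line each, and groups came from the sample labels. For RNA, the authors deposited FPKM for each RefSeq gene after TopHat2 2.0.13, Cufflinks and Cuffnorm 2.2.1 on hg19. The deposited peak lists hold the authors' SPP signal and −log10 FDR, called in each library against input after BWA 0.7.5a-r405 and Picard 1.126. These relaxed lists were limited by rank, with 156481 to 300000 peaks, and signal was used only to rank peaks within a list. No count of reads stands behind single values, so their depth is unknown. SP1 and input libraries were not used here, and the values of some genes and regions are not reported here.

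The test of RNA was limma 3.58.1 (R 4.3.3) on log2(FPKM + 0.5), for genes whose mean exceeded 1, and p-values were adjusted by Benjamini-Hochberg over all of them. Replicate peaks that overlapped by at least 1 bp were paired, and IDR came from a Gaussian copula mixture fitted in Python 3.11.15, at thresholds the study names, 0.1 for H3K4me1 and 0.7 for ERα. For ERα the study also names 0.2, which was an alternative, and counts of reproducible peaks are those of this fit, not of the study's IDR software. Coordinates are 1-based on hg19, and gene models and sequences came from GENCODE and GRCh37. Of the RNA entries, 97.4% matched a symbol. The steps were tested on simulated data. All 10 members were named whatever they showed, with KMT2C, ESR1 and at most the 3 largest changes in each list. The members and lists were chosen with earlier results of these data known.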

Additional observations from a re-analysis of the deposited data

How the results depend on the processing

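Of 149 log2 fold changes of the members under other settings, 141 kept their direction and their side of the threshold, 7 reversed and 1 passed the threshold. With each library left out in turn, BCL2 ran from -0.28 to 0.40, BCL2L11 from -0.26 to 0.57, BCL2L1 from -0.065 to 0.71, BAX from -0.070 to 0.63 and BID from -0.58 to 0.38, and without a reversal MCL1 from 0.095 to 0.22, BAK1 from 0.45 to 0.81, BAD from 0.37 to 0.89, BBC3 from 0.25 to 0.92 and BIK from -0.55 to -0.079. The reversals came without ZR751shLucif replicate 1 for BCL2, BCL2L11 and BID, without ZR751shLucif replicate 2 for BCL2L1 and BAX, and for BID also without ZR751shMLL3 replicate 1 (0.18) and after removal of the trends on GC content and length (0.042). With 1 surrogate variable removed, BAX was called (log2 fold change 0.28, adjusted p = 0.0214 in an ordinary t-test per gene, not limma), so that 1 member passed. That setting takes its variable from the residuals of 4 libraries and called 1682 genes in all. It gave up no degree of freedom for the variable, which makes its p-values too small. The standard error of BAX was 0.011 there, beside 0.33 in limma. At an unadjusted p under 0.05 the same t-test counted 3 members and 4085 genes. Members past the threshold were 0 under every other setting, each library left out in turn included (0 to 0). Over all genes, where 1 passed, the counts were 33 with the replicate block, which called 0 members, and 0 both without the filter (1861 genes at an unadjusted p under 0.05 in limma) and after the GC content and length trends were removed (768 at an unadjusted p under 0.05). They ran from 2 to 1269 with each library left out, and the 1269 came without ZR751shLucif replicate 2. Deviations of same-numbered libraries from their cell line means correlated at 0.0374 across genes, so the block stands for a shared number only. The balance of -0.085 became 0.13 with the GC content trend removed and 0.0080 with the length trend as well, and ran from -0.156 to -0.015 with each library left out. The cause of these moves was not tested.

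Around the members, the 74 and 19 reproducible H3K4me1 peaks of ZR751shLucif and ZR751shMLL3 became 39 and 13 at an IDR of 0.05, 137 and 27 as peaks at an FDR of at most 0.01 in both replicates, 43 and 28 among the 50000 top-ranked in both, and 43 and 13 where pairs had to overlap over at least 50% of the shorter peak. The 2 reproducible ERα peaks of ZR751shLucif became 1 at an IDR of 0.05, 1 at an IDR of 0.2 and 1 among the 50000 top-ranked in both. They became 3 as peaks at an FDR of at most 0.01 in both replicates, where ZR751shMLL3 had 0. That 0 was fixed in advance, because ZR751shMLL3 replicate 1 had 0 peaks at this FDR around the members. Over the genome this rule gave 558 peaks in ZR751shLucif and 283 in ZR751shMLL3. The 0 reproducible ERα peaks of ZR751shMLL3 became 1 among the top-ranked, at chr18:61005932-61006832. The difference in H3K4me1 peaks per library ran from -177 to -75 with each library left out. That in ERα peaks ran from -45.5 to 4.5, and reversed to 4.5 without ZR751shLucif replicate 1. Merging overlapping peaks and the ERα threshold of 0.2 were chosen after seeing the data. With 2 libraries per group and no depth for single values, small differences were not detectable here.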
